A study of Mus musculus with 12 samples.

Results

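Cytosolic ribosomal protein genes were followed in the livers of mice given low-dose penicillin and of untreated mice. A gene was included where a probeset of the array had it as its only gene and its symbol began with Rpl or Rps and a digit, or was Rpsa, Rplp0, Rplp1 or Rplp2. Kinases of the Rps6k family were left out. The rule found 107 probesets of 51 genes, among 18193 genes that single-gene probesets named. Each gene was read on its brightest probeset, and 47 of the 51 lay above the filter on dim probesets, a mean of 4.73 on the log2 scale, together with 11899 genes in all.

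The study hybridised liver RNA of 12 male C57BL/6 mice to Affymetrix expression arrays, 1 array per mouse. The 6 penicillin mice drank low-dose penicillin after weaning, and the 6 control mice received no antibiotic; livers were taken after 7 weeks. Both groups came from 1 supplier, ate and drank freely and lived in equal hours of light and dark. The labels give no dose, hour of collection, age at collection or caging, so p-values measure the spread between these mice, which may have shared cages. Values are log2 intensities, and a level on 1 probeset is not set against a level on another.

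The ribosome joins amino acids into protein. Its small subunit holds the messenger RNA and checks each codon, and its large subunit forms the peptide bond and passes the chain out through a tunnel. In growing and secreting tissues such as liver, ribosomal protein mRNAs are among the most abundant messages. They begin with a run of pyrimidines, the 5′ terminal oligopyrimidine tract, through which Larp1 and the mTOR pathway set their translation together, so protein output can move while mRNA levels stay where they are. In rodent liver the making of ribosomes is also tied to feeding and to the circadian clock.

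The start sites of the genes the results turn on are shown because the family is known for that tract at its 5′ end. Each window runs from 60 bases before to 20 bases after the annotated start of transcription, on the coding strand, from RefSeq with build GRCm38.p6. Capitals mark the longest run of at least 6 C or T letters that came within 5 bases of the start. The first 5 genes have such a run and the last 3 have none. The windows lie at chr17:33955646-33955725, minus strand, for Rps18, at chr4:86857348-86857427, minus strand, for Rps6, at chr7:45128726-45128805, minus strand, for Rpl13a, at chr2:39005112-39005191, minus strand, for Rpl35, at chr3:28805448-28805527, plus strand, for Rpl22l1, at chr5:115559407-115559486, plus strand, for Rplp0, at chr17:46782637-46782716, minus strand, for Rpl7l1, and at chr15:80264287-80264366, minus strand, for Rps19bp1.
Rps18: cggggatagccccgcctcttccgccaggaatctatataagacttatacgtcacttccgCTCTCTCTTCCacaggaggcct
Rps6: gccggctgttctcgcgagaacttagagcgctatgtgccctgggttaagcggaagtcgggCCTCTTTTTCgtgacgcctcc
Rpl13a: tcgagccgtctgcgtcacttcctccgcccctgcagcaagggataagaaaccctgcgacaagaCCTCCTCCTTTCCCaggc
Rpl35: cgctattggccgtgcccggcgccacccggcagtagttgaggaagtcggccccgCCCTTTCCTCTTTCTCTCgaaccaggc
Rpl22l1: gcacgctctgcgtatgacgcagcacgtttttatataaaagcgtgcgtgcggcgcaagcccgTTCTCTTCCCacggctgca
Rplp0: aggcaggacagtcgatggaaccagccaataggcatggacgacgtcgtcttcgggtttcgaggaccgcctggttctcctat
Rpl7l1: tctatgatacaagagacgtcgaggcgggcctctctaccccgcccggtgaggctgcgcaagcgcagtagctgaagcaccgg
Rps19bp1: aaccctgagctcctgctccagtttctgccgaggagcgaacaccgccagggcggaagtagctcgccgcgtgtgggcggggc

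A RefSeq promoter entry was found for 44 of the 51 genes, with 52 entries in all because some genes have several starts; Rpl7, Rpl8, Rps14, Rps15a-ps6, Rps20, Rps29 and Rps4l had none. A pyrimidine run at the start was present in 23 of the 52 entries (44.2%), against 21.0% of 32851 entries of all genes. Over whole entries of 250 bases before and 50 after the start, read on both strands, the ETS factor motif CCGGAAG was present in 40.4% against 8.86% of all. The E-box CACGTG, which clock activators bind, was in 9.62% against 7.15%. The D-box TTATGTAA, which Dbp and its relatives bind, was in 0% against 0.938%. Its variant TTACGTAA was in only 1 of the 52 entries (1.92%), against 0.119%. The TATA motif TATAAA was in 11.5% against 13.6%. A match describes these letters only. The absence of a motif says only that its letters are not in the entry. The absence of a run says only that none came within 5 bases of the annotated start.

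Of the 47 genes read, 20 encode proteins of the small subunit and 22 proteins of the large subunit; these 42 are called standard ribosomal protein genes here. A further 4 are variants, paralogues or processed copies of a standard gene: Rpl22l1, Rpl7l1, Rps27l and Rps4l, the last a transcribed pseudogene in RefSeq. The remaining 1, Rps19bp1, answers to the rule by its symbol but encodes a protein that binds Rps19 and is not part of the ribosome. The 4 genes below the filter were the variants Rpl3l, Rpl39l and Rps15a-ps6, with means of 3.25, 3.61 and 2.84, and the standard gene Rps16, with a mean of 3.07 on its only single-gene probeset. Rpl39l reached 5.02 and 4.95 in control 4 and control 5 and lay between 2.95 and 3.65 in the other 10 mice. Many family members cannot be read singly: 110 further probesets named a ribosomal protein gene beside other genes, and 54 symbols, Rpl3, Rpl5 and Rpl32 among them, occurred only there.

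The ribosomal protein genes were among the steadiest genes of these livers. The standard deviation within groups had a median of 0.068 on the log2 scale over the 42 standard genes, against 0.152 over all genes tested. High signal goes with low spread on these arrays, and the 33 standard genes with a mean of 12 or more had a median of 0.060, against 0.088 for the 436 other genes that bright. A total of 28 standard genes lay in the lowest 10% of all genes for spread, and 37 under the median of all genes. Rps2, a protein near the messenger RNA entry of the small subunit, had the smallest standard deviation, 0.025, with levels from 13.47 to 13.55 over the 12 mice. Rps28 and Rps26, which sit by the messenger RNA exit, followed at 0.034 each. The largest were those of dim probesets, 0.261 for Rpl27a and 0.248 for Rpl12.

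**Figure D1:**
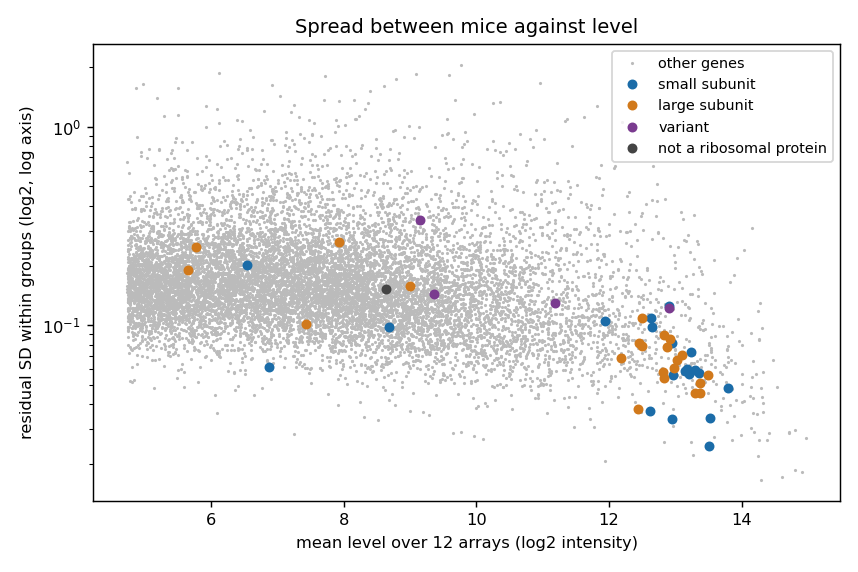
Standard deviation within groups (log2, log axis) against mean level over 12 arrays (log2 intensity) for 11899 genes, 1 point per gene; ribosomal protein genes are coloured by role. The 33 standard genes at or above 12 lie low in the cloud, with a median of 0.060.

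The 1st comparison asked whether 7 weeks of penicillin moved the mRNAs of the protein synthesis machinery. No ribosomal protein gene passed in limma with Benjamini-Hochberg adjustment at 0.05 (0 of 47; 0 of all 11899 genes, 0.0%), and the smallest adjusted p among the 47 was 0.588. At an unadjusted p under 0.05, 2 of the 47 passed, where 7.98% of all genes did: Rps4l was higher with penicillin (4.33% of all genes were higher at that level) and Rpl22l1 lower (3.66% lower). The shared feature was a small one-sided offset: the penicillin mean was below the control mean for 44 of 47 genes, where 47.2% of all genes had a difference below 0. The median difference was −0.047, or −3.20%, beside 0.006 for all genes. In no gene did the groups separate; over all genes every penicillin mouse lay below every control in 0.151% and above every control in 0.261%.

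The offset was present in both subunits. All 20 small-subunit genes had a difference below 0, with a median of −0.047 and a range from −0.116 for Rpsa to −0.005 for Rps7. In the large subunit 21 of 22 were below 0, with a median of −0.045, from −0.083 for Rpl35 to 0.075 for Rpl14. Among the 33 standard genes at 12 or more, all 33 were below 0, with a median of −3.00%, while 42.7% of the 436 other genes that bright were. These counts do not stand for as many independent observations, because the genes moved together from mouse to mouse. The intervals were narrow: the 95% interval of the difference lay within 1.2-fold in either direction for 37 of 42 standard genes. It did so for 38 of all 47 (80.9%), against 50.6% of all genes. Among genes at 12 or more the counts were 32 of 33 standard genes and 330 of 436 others (75.7%). Narrow intervals were not particular to the family: 90.8% of 76 mitochondrial ribosomal protein genes had them. So did 100% of 19 translation factors and other mRNAs with an oligopyrimidine tract.

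**Figure D2:**
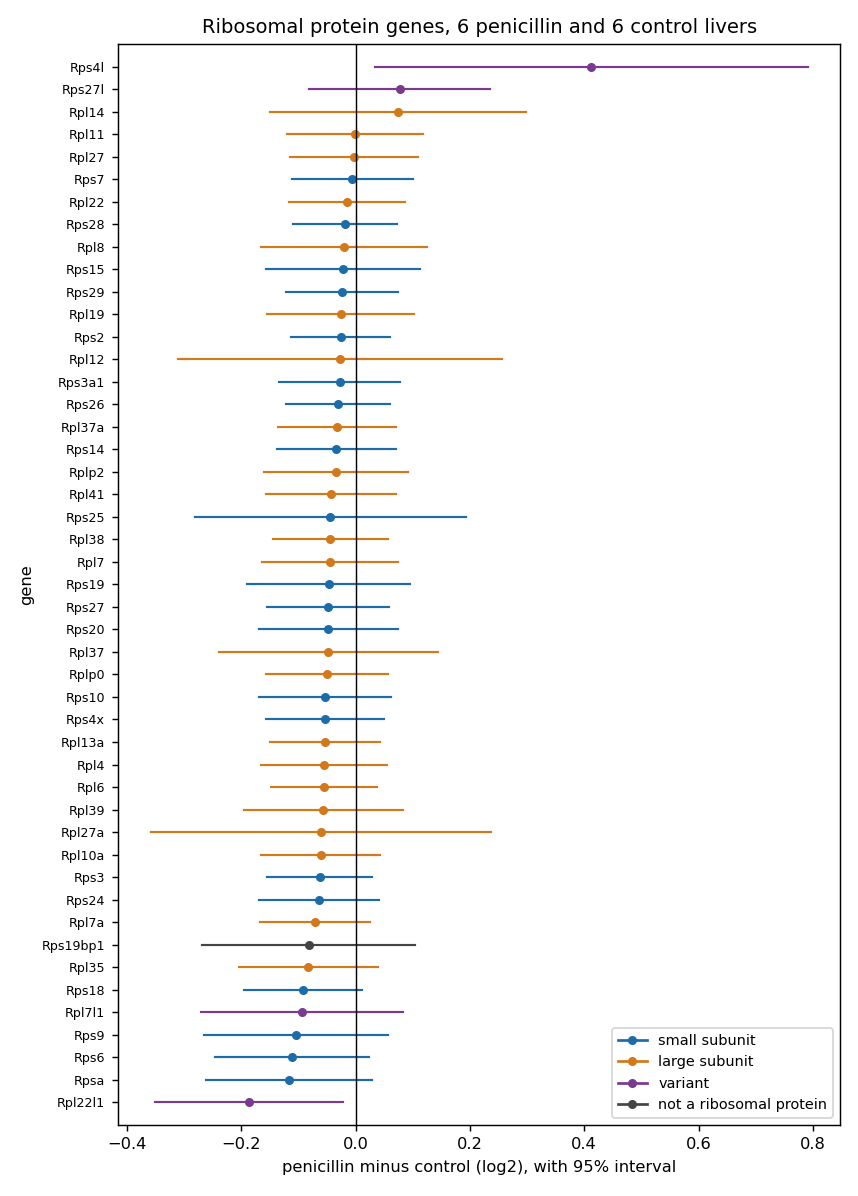
Difference between 6 penicillin and 6 control livers for each of 47 genes (log2, point with 95% interval), coloured by role. All but 3 points lie left of 0, and the intervals of all but Rps4l and Rpl22l1 include 0.

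Rpl22l1, a paralogue of the large-subunit RNA-binding protein Rpl22, had control levels of 11.13, 11.28 and 11.46 (lowest, median, highest) and penicillin levels of 10.91, 11.07 and 11.28. Penicillin 1 was lowest of all, and 2 of the 6 penicillin mice, 2 and 4, lay above the lowest control, so the groups overlapped. The difference was −0.19 (SE 0.08, limma adjusted p = 0.588; 6 mice per group). Rpl22 itself had a difference of −0.01 (SE 0.05).

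Rps4l, named for its likeness to small-subunit protein S4, ran the other way, with control levels of 8.56, 8.86 and 9.43 and penicillin levels of 8.83, 9.43 and 9.66. The 3 lowest mice were control 1, control 3 and control 5, at 8.56, 8.61 and 8.72, and penicillin 4 at 8.83 came next. The difference was 0.41 (SE 0.18, 95% interval 0.03 to 0.79, limma adjusted p = 0.594). Those 3 controls are also the mice with high immediate early genes, and without them the difference was 0.10; with the mean of the immediate early genes in the fit it was 0.009. Rps4x, which encodes that protein, had a difference of −0.05 (SE 0.05).

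Rps27l, a p53-inducible paralogue of Rps27, ranged from 12.65 to 13.02 in controls and from 12.78 to 13.05 with penicillin, with medians of 12.90 and 12.95. Its difference of 0.08 (SE 0.07, limma adjusted p = 0.848) was 0.032 when control 1 was left out and −0.015 when controls 1, 3 and 5 were. Adding the immediate early mean to the fit put it at −0.047. Rpl7l1, a large-subunit assembly factor related to Rpl7, had a difference of −0.09 (SE 0.08), and the Rps19-binding protein gene Rps19bp1 one of −0.08 (SE 0.09), which was −0.028 without penicillin 1 and −0.040 without control 4. The variants thus spread over a wider range than the standard genes, whose differences all lay between −0.116 and 0.075; whether variants and standard genes differ was not tested.

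**Figure D3:**
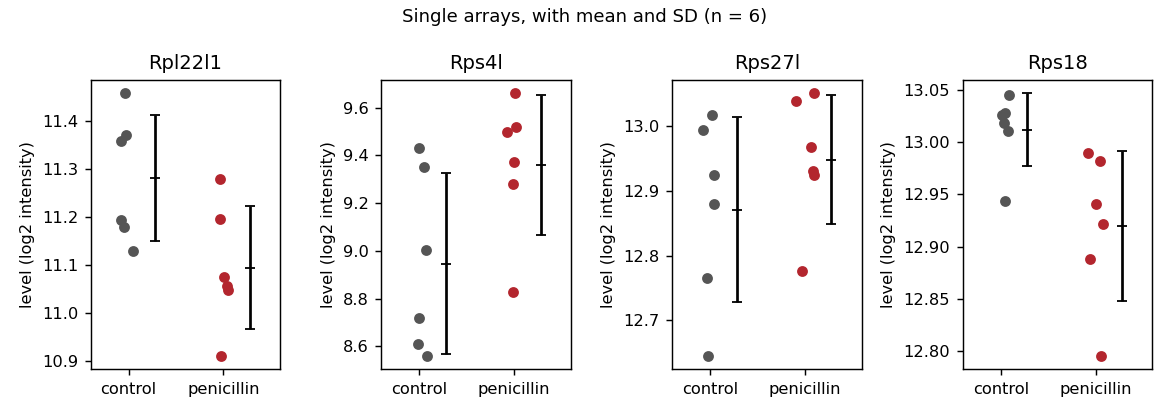
Levels of 3 variants and of Rps18 in single mice (log2 intensity, 1 point per array; bars show mean and SD, n = 6). In every panel the groups overlap, and in the Rps18 panel control 3 lies at 12.94, inside the penicillin range, under the other 5 controls.

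Rps18, which lies in the head of the small subunit and is often used as a reference gene, had the smallest p among standard genes. Control levels were 12.94, 13.02 and 13.04, and penicillin levels 12.80, 12.93 and 12.99. The other 5 controls, at 13.01 or more, lay above every penicillin mouse, and control 3 lay among the penicillin mice. The difference was −0.09 (SE 0.05, 95% interval −0.20 to 0.01, limma adjusted p = 0.674), or −6.18%. Of the other Rps18 probesets above the filter, the bright ones gave −0.086 and −0.040 and a dim one 0.075. The mean of its probesets above the filter gave −0.036.

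Rps6, the small-subunit protein that S6 kinase phosphorylates when mTOR is active, had control levels of 8.64, 8.70 and 8.90 and penicillin levels of 8.43, 8.64 and 8.72. Rpsa, also known as the laminin receptor, had control levels of 12.52, 12.72 and 12.80 and penicillin levels of 12.41, 12.58 and 12.73. Their differences were −0.11 (SE 0.06, limma adjusted p = 0.699) and −0.12 (SE 0.07, 0.713), and in both genes the groups overlapped. Rps9, whose difference was −0.10 (SE 0.07), Rps3, with −0.06 (SE 0.04), and Rps24, with −0.06 (SE 0.05), completed the small-subunit genes of smallest p. Rps3 lines the messenger RNA entry channel.

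In the large subunit the smallest p values belonged to Rpl7a, Rpl35 and Rpl6. Rpl7a ranged from 13.36 to 13.50 in controls and from 13.28 to 13.38 with penicillin, a difference of −0.07 (SE 0.04, limma adjusted p = 0.739). Rpl35, which stands at the exit of the peptide tunnel, ranged from 12.38 to 12.60 and from 12.30 to 12.52, a difference of −0.08 (SE 0.06). Rpl6 differed by −0.06 (SE 0.04). Ranges overlapped in each of these genes. Rpl14, the only standard gene with a difference above 0, was read on a dim probeset, from 5.36 to 5.97 in controls and from 5.49 to 5.86 with penicillin (0.07, SE 0.10).

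Several of these genes serve as references in quantitative PCR. For Rpl13a the difference was −0.05 (SE 0.04, 95% interval −0.15 to 0.04), and for Rplp0, the base of the ribosomal stalk, it was −0.05 (SE 0.05, −0.16 to 0.06). Rpl11, which with Rpl5 can bind the p53 regulator Mdm2, had means of 12.88 ± 0.076 in controls and 12.88 ± 0.081 with penicillin (SD, n = 6) and a difference of −0.0005 (95% interval −0.12 to 0.12). Rpl5 and Rpl32 could not be read singly.

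Further genes are given by the place of their protein in the ribosome. At the stalk, where elongation factors land, Rplp0 was joined by Rplp2 at −0.03 (SE 0.06) and Rpl12 at −0.03 (SE 0.13). Along the peptide tunnel and its exit, Rpl4 was at −0.05 (SE 0.05), Rpl39 at −0.06 (SE 0.06) and Rpl19 at −0.03 (SE 0.06), beside Rpl35. Rpl8, near the centre that forms the peptide bond, was at −0.02 (SE 0.07), and Rpl38, known for its part in the translation of Hox mRNAs, at −0.04 (SE 0.05). Of the genes mutated in Diamond-Blackfan anaemia, Rps19 was at −0.05 (SE 0.07), Rps10 at −0.05 (SE 0.05), Rps26 at −0.03 (SE 0.04) and Rps7 at −0.005 (SE 0.05). None of these passed, and each 95% interval included 0.

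The offset was carried unevenly by the mice. Each gene was centred on its mean over the 12 arrays, and the median of the 42 standard genes was taken per mouse. In controls it ranged from −0.05 in control 3 to 0.06 in control 4, and in penicillin mice from −0.11 in penicillin 1 to 0.04 in penicillin 4. Penicillin 1 stood lowest, with 41 of 42 standard genes below their own mean. Control 3 and penicillin 3 followed with 32 each, at medians of −0.05 and −0.05. The median of all genes, centred the same way, was −0.036 in control 3, the lowest of the 12 mice. It was −0.025 in penicillin 1 and −0.012 in penicillin 3. Penicillin 5 had 33 genes below their mean at a median of −0.02. Control 4 and control 2 stood highest, with 4 and 5 genes below. Without penicillin 1 the median difference of the family was −0.026, with 36 of 47 genes below 0, and the range over leaving out each mouse in turn was −0.059 to −0.026. Without control 6 and penicillin 1, 5 and 6, whose clock genes stood apart, it was −0.016, with 30 of 47 below 0.

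**Figure D4:**
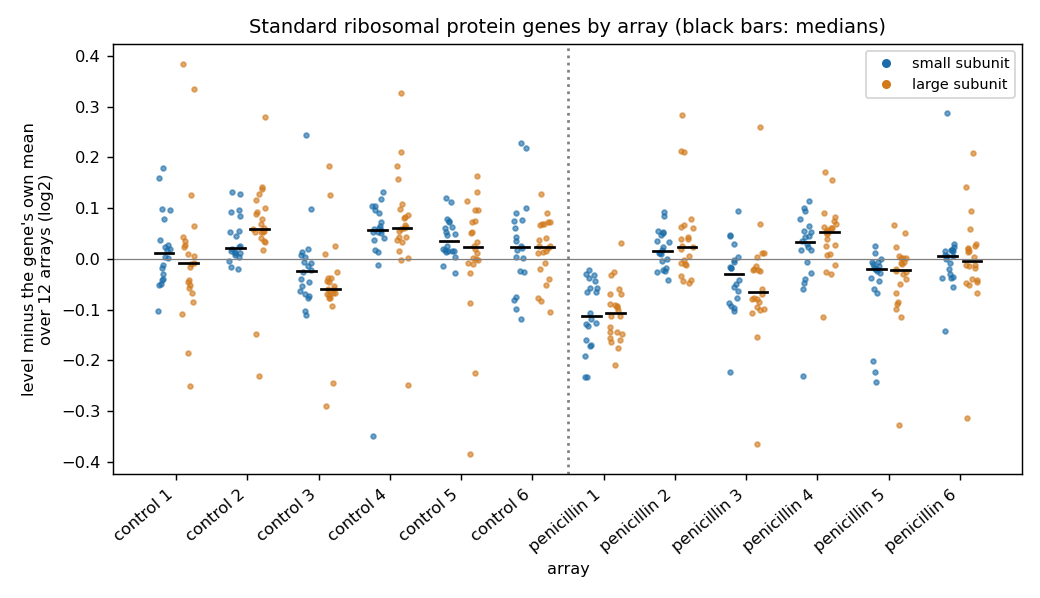
Level of each standard ribosomal protein gene minus its own mean over 12 arrays (log2), by mouse, with small-subunit genes (20) and large-subunit genes (22) side by side; black bars are medians. Penicillin 1 lies lowest, with medians of −0.11 in both subunits, and the other mice of both groups overlap.

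Markers of cell types were read in the same mice. Penicillin 1 had the lowest mean of the cholangiocyte markers, −0.53, of the stellate cell and fibroblast markers, −0.54, of the endothelial markers, −0.31, and of the neutrophil markers, −1.69, after the same centring, and the median of all genes there was −0.025. Over groups, 4 of 5 cholangiocyte markers were read and all 4 were below 0 with penicillin, their mean ranging from 0.07 to 0.27 in controls and from −0.53 to 0.08 in penicillin mice. Of 6 neutrophil markers 2 were read, S100a8 and S100a9, ranging together from −0.32 to 2.28 and from −1.69 to −0.51, while Ngp and Camp were below the filter. Of 7 stellate cell markers 6 were read, from −0.27 to 0.40 and from −0.54 to 0.28, and all 6 endothelial markers, from −0.17 to 0.40 and from −0.31 to 0.07. All 10 Kupffer cell markers were read, 8 of them below 0, from −0.21 to 0.38 and from −0.26 to 0.15. All 7 hepatocyte markers of the labelled tissue were read, Alb at a mean of 14.98; 6 of the 7 were below 0, from −0.04 to 0.09 and from −0.16 to 0.10, and penicillin 1 had the highest mean of the 12 mice. Other lists lay above 0. Of the 5 T and NK cell markers read, 4 were higher with penicillin, with a median difference of 0.10. Of the 3 B and plasma cell markers read, 2 were, with a median of 0.19. The T and NK mean was 0.43 in penicillin 6 and at most 0.035 in each other penicillin mouse. Controls ran from −0.10 to 0.06. The B and plasma cell means overlapped, from −0.34 to 0.34 and from −0.13 to 0.31. Several of these markers were dim and close to the filter, such as Cd79b at 4.78, Nkg7 at 5.02 and Gzma at 5.21. Cd79a, Ms4a1 and Cd3g were below it. The cholangiocyte markers were dim too, from 4.91 for Krt7 to 5.64 for Epcam. The part of these cell markers in the offset was not tested. In whole liver a change in the number of cells of a type and in RNA per cell cannot be told apart. The immediate early genes also moved with the groups. Of 13 on the list 12 were read, and all 12 were below 0 with penicillin, where 47.2% of all genes were. At an unadjusted p under 0.05 in limma 11 of the 12 were lower, where 3.66% of all genes were, and 0 passed the adjusted threshold. The mean of the 12 ran from −0.81 to 2.14 in controls and from −0.89 to −0.62 with penicillin. With that mean in the fit the median difference of the ribosomal protein genes was −0.076, with 43 of 47 below 0.

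Other probesets of the family were read as well. Of the 47 single-gene probesets above the filter that were not the brightest of their gene, 37 had a difference below 0, with a median of −0.052. Of 102 bright enough probesets shared by a ribosomal protein gene and other genes, 88 were below 0, with a median of −0.035 and a range from −0.15 to 0.14. Over all 22519 probesets above the filter, 49.5% were below 0. Of 21 genes with several probesets above the filter, 7 had probesets that differed in sign: Rpl22, Rpl41, Rps18, Rps24, Rps3, Rps4x and Rps9. In these genes the probesets above 0 were the dimmer ones, with means from 4.82 for Rps4x to 8.88 for Rpl22. The probesets used, all below 0, had means from 12.62 for Rps3 to 13.21 for Rps4x. For 13 of the 47 genes the probeset used carried a suffix for probes shared within a family, and many processed pseudogenes resemble these mRNAs, so single-gene readings remain uncertain to that extent.

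Standard ribosomal protein genes varied together between mice of 1 group. Over the 861 pairs of the 42 standard genes, the median correlation of deviations from the group means was 0.45 over 12 arrays, and 78.9% of pairs were above 0. The median was 0.38 within the small subunit, 0.50 within the large subunit, 0.21 within 76 mitochondrial ribosomal protein genes and 0.014 over all genes. All these pairs share arrays and their normalization. Rpl27, Rpl22, Rpl10a and Rps24 followed the mean of the other standard genes most closely, with correlations of 0.95, 0.93, 0.90 and 0.89. Rps25 at −0.36 and Rpl27a at −0.23, both on dim probesets, and Rpsa at −0.02 and Rpl7a at 0.02, on bright ones, did not follow it.

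The other parts of the protein synthesis machinery were read from lists of known genes, and 0 genes of these lists passed the penicillin comparison in limma after adjustment. At an unadjusted p under 0.05, 3 of 76 mitochondrial ribosomal protein genes were higher, where 4.33% of all genes were, and 3 of 13 genes of quality control and stress were lower, where 3.66% of all genes were, with 0 in the lists of translation factors, biogenesis and growth signalling. Fau, whose product is cleaved to a small-subunit protein, differed by −0.05 (SE 0.05). Of 19 translation factors and other mRNAs of the oligopyrimidine class, 18 had a difference below 0, with a median of −0.026. Elongation factor Eef2 came first by p, at −0.10 (SE 0.05), and Eef1d followed at −0.08 (SE 0.06). Of 59 ribosome biogenesis genes 40 were below 0, with a median of −0.032; the 60S export adaptor Nmd3, at 0.20 (SE 0.09), and the pseudouridine synthase Dkc1, at 0.16 (SE 0.09), were above.

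Mitochondrial ribosomal protein genes, which encode the separate ribosome of that organelle, lay on the other side of 0: 63 of 76 had a difference above 0, with a median of 0.050, or 3.49%, and 0 passed. Mrps18c came first by p, with controls from 10.57 to 10.75 and penicillin mice from 10.72 to 10.84 (0.13, SE 0.05, limma adjusted p = 0.570). Mrpl49 followed at 0.13 (SE 0.05). In both genes the groups overlapped. The difference between the mitochondrial and the cytosolic family was not tested.

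Of 19 growth signalling genes that act on ribosomes, 8 were below 0, with a median of 0.028; Max differed by −0.18 (SE 0.10) and Tsc1 by 0.12 (SE 0.07). Of 13 genes of ribosome quality control and stress signalling, 10 were below 0, with a median of −0.075. Eif2ak3, the kinase PERK that slows translation under endoplasmic reticulum stress, differed by −0.83 (SE 0.17, limma adjusted p = 0.276), and Atf4 by −0.45 (SE 0.18, 0.584).

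The 2nd comparison set the family against the level of Dbp, a clock output factor whose mRNA swings widely over the day in liver. The control levels of Dbp were 10.62, 7.65, 10.68, 6.44, 8.18 and 11.96 from control 1 to control 6, and the penicillin levels 11.96, 9.01, 8.75, 7.80, 12.05 and 12.05 from penicillin 1 to penicillin 6. The groups overlapped widely (difference 1.02, SE 1.04, limma adjusted p = 0.867). The mice were divided at the widest gap in Dbp, 1.61, where the next was 1.28. This gave 6 with Dbp from 6.44 to 9.01 and 6 with Dbp from 10.62 to 12.05, each with 3 controls. The cut was placed by these levels, so the gap does not show that the mice form 2 separate sets. As the levels were unevenly spread, no pooled correlation is given.

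No ribosomal protein gene passed for a slope on Dbp, with the treatment in the fit (0 of 47 in limma with Benjamini-Hochberg adjustment), where 3.08% of all 11898 genes passed, 2.01% with a slope below 0 and 1.08% above. At an unadjusted p under 0.05, 4 of the 47 passed, all with slopes below 0, against 15.8% of all genes in either direction and 9.25% below. Slopes were below 0 for 44 of 47 genes, where 52.1% of all genes had one below 0. The median slope was −0.016 on the log2 scale per log2 unit of Dbp, or −1.12%, beside −0.002 for all genes. A difference in slope between control and penicillin mice passed for 0 genes (0.0%), and the smallest adjusted p among the 47 was 0.999.

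The smallest p values belonged to Rps19bp1 and to the variant Rpl7l1, neither a standard ribosomal protein gene. Rps19bp1 was lowest in penicillin 1, at 8.32, with penicillin 5, penicillin 6 and control 6 at 8.49, 8.52 and 8.52, and highest in control 4, at 8.88. Its slope was −0.058 (SE 0.017, limma adjusted p = 0.102). Rpl7l1 had a slope of −0.050 (SE 0.017, adjusted p = 0.160), with 9.10 and 9.18 in penicillin 5 and penicillin 1 and 9.60 in penicillin 3. Among standard genes Rpl35 came first, at −0.031 (SE 0.013, adjusted p = 0.235), then Rpl41 at −0.027 (SE 0.012) and Rpl37 at −0.042 (SE 0.021). Rps25, at 0.045 (SE 0.027), Rpl12, at 0.019 (SE 0.036), and Rps6, at 0.004 (SE 0.017), had the 3 slopes above 0. Without control 2, Rps19bp1 alone passed, at −0.068 with an adjusted p of 0.0360.

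The direction of most slopes differed between the sets of mice. Within the 6 mice of low Dbp, 35 of 47 slopes were below 0, where 59.9% of all genes had one below 0, with a median of −0.022, and 0 members and 0.0% of all genes passed. Within the 6 mice of high Dbp, 14 of 47 slopes were below 0, where 44.3% of all genes had one. The median was 0.065, and 0 members passed, against 2.47% of all genes. In that set the penicillin mice had nearly the same Dbp, 11.96, 12.05 and 12.05. With the treatment in the fit, its slopes rest mostly on control 6, at 11.96, against control 1 and control 3, at 10.62 and 10.68. Control 1 and control 3 also had high immediate early genes. Pearson correlations with Dbp had a median of −0.48 in the low set and 0.07 in the high set, beside −0.07 and 0.11 for all genes. Unlike the slopes, they were taken without the treatment. They were below 0 for 40 of 47 genes in the low set and for 23 in the high set. With 6 mice an exact two-sided permutation test of a Pearson correlation cannot give a p under 0.00139, and the smallest adjusted p among the members was 0.245 over 11898 genes. Rps19bp1 had slopes below 0 in both, −0.079 (SE 0.077) and −0.099 (SE 0.098). So had Rpl7l1, Rpl12, Rpl38, Rpl39, Rpl41 and Rps3.

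**Figure D5:**
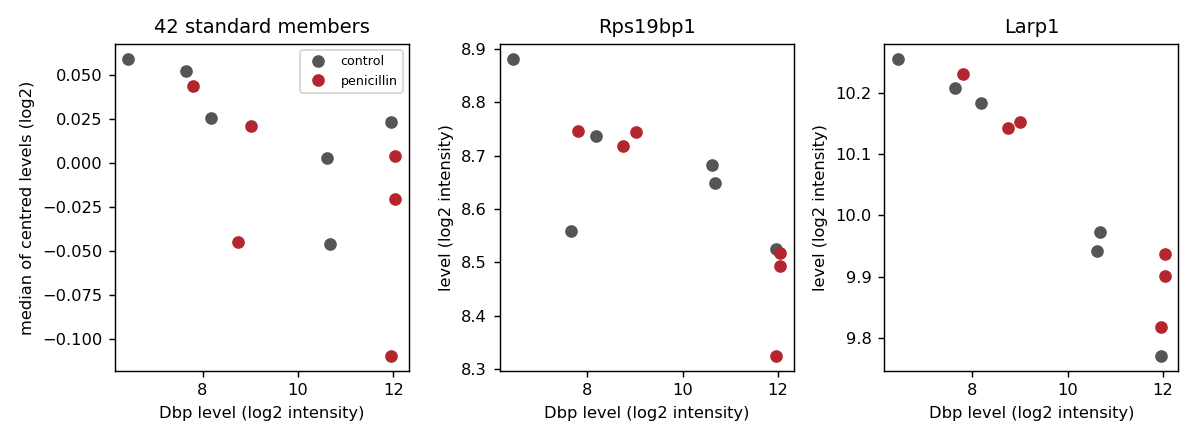
Median of the 42 standard genes after centring, Rps19bp1 and Larp1 against Dbp (log2 intensity, 1 point per mouse, coloured by group). The cut at the widest gap in Dbp puts 6 mice at 9.01 or less and 6 at 10.62 or more. Larp1 is at least 10.14 in every mouse of the former and at most 9.97 in every mouse of the latter. This restates its relation to the same Dbp levels.

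Outside the family, 1 of 19 growth signalling genes, Larp1, and 1 of 59 biogenesis genes, Riok2, passed this comparison, beside the 3.08% of all genes given above, so neither list stood apart by its count. Larp1, which binds the oligopyrimidine tract and the cap of ribosomal protein mRNAs, measured 9.94, 10.21, 9.97, 10.26, 10.18 and 9.77 in control 1 to control 6 and 9.82, 10.15, 10.14, 10.23, 9.90 and 9.94 in penicillin 1 to penicillin 6. Its levels in the 6 mice of low Dbp all lay above those in the 6 mice of high Dbp. For Larp1 this restates its relation to the same Dbp levels, and the share of all genes that separate so was not counted. Its slope was −0.085 (SE 0.012, 95% interval −0.11 to −0.06, limma adjusted p = 0.00247), whereas its difference with penicillin was −0.03 (SE 0.10). Larp1 passed in 24 of 26 alternative settings; without control 6 and penicillin 1, penicillin 5 and penicillin 6 the slope was −0.076 and did not pass, nor did it with the replicate number as a block (adjusted p = 0.644). Within the mice of low and of high Dbp its slopes were −0.052 (SE 0.060) and −0.136 (SE 0.087), and neither passed. Riok2, a kinase of small-subunit maturation, had a slope of 0.15 over all 12 mice (SE 0.03, limma adjusted p = 0.0297), but its direction differed between the sets: −0.18 (SE 0.11) within the mice of low Dbp and 0.38 (SE 0.09) within those of high Dbp, neither of which passed. For Larp1 and Riok2 alike, the slope within the high set rests mostly on control 6 against control 1 and control 3, as given above. Riok2 passed in 17 of 26 settings. It did not pass without control 2, control 3, control 6, penicillin 2, penicillin 5 or penicillin 6, without control 1, 3 and 5 together, without control 6 and penicillin 1, 5 and 6 together, or with the replicate block (adjusted p = 0.244).

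Of the 16 other clock genes read, 10 passed, 6 with slopes above 0, such as Tef at 0.37 and Per3 at 0.50, and 4 below, led by Arntl at −0.77. Of the mitochondrial ribosomal protein genes 61 of 76 had slopes below 0, with a median of −0.013, and 0 passed. Of the 19 other oligopyrimidine mRNAs 10 had slopes below 0, with a median of −0.002, and 0 passed. With Dbp in the penicillin fit, the median penicillin difference of the ribosomal protein genes was −0.029, with 39 of 47 below 0.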

How the data were processed

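Liver RNA of 6 control and 6 penicillin mice was measured on 12 Affymetrix arrays, labelled from the 3′ end per the labels' protocols. The authors deposited probeset intensities made with RMA, per the submitters' processing notes; its software and settings are not given in the sources used here. This method gives the probe intensities of all arrays 1 distribution, which largely takes out a shift common to most genes. The gene values kept small shifts: the median of all genes after centring ran from −0.036 in control 3 to 0.033 in penicillin 4. The deposited values were linear, from 4.92 to 36550, and log2 was taken here. Of 45101 probesets 64 were controls; of the other 45037, 34945 had 1 gene in the platform annotation, 932 several and 9160 none. Symbols were updated through RefSeq (GRCm38.p6), where 18032 of 18193 genes were found. Probesets with a mean under the median (4.73) were left out, and each gene was read on its brightest probeset.

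Differences and slopes came from limma 3.58.1 in R 4.3.3 (linear model, empirical Bayes, two-sided, Benjamini-Hochberg over all genes, threshold 0.05), tested on simulated data. Dbp slopes had the treatment in the fit. Groups were the labels' treatments. The members and lists were chosen with earlier results of these data known. Named are the 10 members of smallest p in each direction for penicillin (3 had a difference above 0) and the 5 for Dbp, all variants, Rps19bp1, Rplp0, Rpl13a, Rps18, Rps6, Rpsa, Rpl11, and 2 genes per other list; Rps2, Rps28, Rps26, Rpl27a, Rpl27, Rpl10a, Rpl22, Rps4x, Rps7 and Rpl39l and the genes grouped by place in the ribosome or by anaemia were named after their values were seen. Alternatives changed the filter, scaling, weights, variance prior, probeset choice, threshold, mice, block and covariates. No array was left out of the main values. Replicate numbers were checked for pairing: correlations of same-numbered mice ran from −0.26 to 0.39. For controls 1, 4 and 6 the best match was the penicillin mouse of the same number, and for the other controls it was not. Whether the numbers pair the mice cannot be told from so few values, and the main fits did not use them. Depth has no counterpart on arrays; the number of arrays limits the precision.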

Additional observations from a re-analysis of the deposited data

Results flagged for a closer look

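Rps18 in control 3 lay apart from the other controls, at 12.94 where the nearest other control was at 13.01; the gap was 0.664 of the range of the 6 controls, above Dixon's critical value for 6 samples. A total of 44 groups of 6 mice, 2 for each of 22 named genes, were tested, and chance alone marks about 1 in 20 groups.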

How the results depend on the processing

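No ribosomal protein gene passed for penicillin in any of 26 alternatives; the median difference ran from −0.076 to −0.016 and the number of genes below 0 from 30 to 47 (47 of 51 with no filter). Leaving out each mouse in turn gave medians from −0.059 to −0.026 and 36 to 44 genes below 0. Repeated quantile normalization gave −0.033 with 40 below 0, and centring arrays −0.041 with 41. Without control 6 and penicillin 1, 5 and 6 the median was −0.016 with 30 below 0, and without control 1, 3 and 5 it was −0.065 with 43.

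Some named genes turned sign; the cause was not tested. Rpl11, close to 0, was at 0.0085 after quantile normalization, 0.0057 after centring, 0.025 with Dbp in the fit and 0.053 without control 6 and penicillin 1, 5 and 6; leaving out each mouse gave −0.018 to 0.029. Without those 4 mice Rpl7l1 was at 0.027, Rpl37 at 0.011 and Rps19bp1 at 0.034. Without control 1, 3 and 5, Rps27l was at −0.015, Rps25 at 0.115 and Rpl12 at 0.020. With the mean of the immediate early genes in the fit, an alternative for named genes chosen after seeing the data, Rps27l was at −0.047, Rps25 at 0.162, Rpl12 at 0.071 and Rpl14 at −0.035. Leaving out each mouse gave −0.107 to 0.047 for Rpl12 and −0.118 to 0.00087 for Rps25. The mean of its probesets put Rpl41 at 0.044.

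For slopes on Dbp, leaving aside the settings with another clock gene in its place, the median ran from −0.024 to −0.012 with 36 to 45 genes below 0. The 36 were of 41 genes, in the setting without probesets that carry a suffix for shared probes. Leaving out each mouse gave 0 to 1 member passing and 248 to 354 genes in all, against 367. A threshold of 0.10 gave 627 genes in all, 0 of them members, and Tef in place of Dbp 502. Slopes per log2 unit of another gene are on another scale; their medians were −0.036 for Tef, −0.019 for Per3 and −0.016 for Arntl with its sign turned. With the replicate number as a block, 0 members passed either comparison (median −0.047 with 44 below 0 for penicillin, −0.012 with 42 for Dbp), and 0 genes in all passed for Dbp.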
